A study of Mus musculus with 2 samples.

Results

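The nuclear genes of oxidative phosphorylation (OXPHOS) were examined complex by complex in single cells of regenerating mouse muscle. Members were taken by symbol: every listed gene that starts with Ndufa, Ndufb, Ndufc, Ndufs, Ndufv, Uqcr, Cox4 to Cox8 or Atp5, and Sdha, Sdhb, Sdhc and Sdhd, with the Ndufaf assembly factors left out. The rule found 85 of the 19169 genes of the table: 39 counted under complex I, 4 under complex II, 8 under complex III, 17 under complex IV and 17 under complex V. Of these, 84 had at least 50 unique molecular identifiers (UMIs, the counted mRNA molecules) in the whole table. The exception, Cox5b-ps, a pseudogene symbol, was read 5 times in the WT-labelled library and 8 times in the KO-labelled one. Ndufa4 stands under complex I because the rule goes by symbol, although its protein is now regarded as a complex IV subunit. Ndufa4l2 and Cox7a2l are relatives of subunits that are not core members of a complex.

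OXPHOS is the last stage of respiration in the inner mitochondrial membrane. Complexes I (NADH dehydrogenase) and II (succinate dehydrogenase, which is also an enzyme of the TCA cycle) pass electrons to coenzyme Q, complex III hands them to cytochrome c, complex IV (cytochrome c oxidase) gives them to oxygen, and complex V (ATP synthase) uses the proton gradient to make ATP. Most subunits are nuclear genes, several of complexes IV and V have paralogs used in particular tissues, and muscle fibres are among the cells richest in these complexes.

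The cells came from the gastrocnemius of male C57BL/6J WT mice and global Gsdme knockout (GSDME-KO) mice at day 14 after cardiotoxin (CTX), a toxin that destroys muscle fibres, and were captured by 10x Genomics single-cell RNA-seq. Each genotype was 1 library. The study used 5 mice per genotype, and how many entered a library was not given in the sources used here. With 1 library per genotype there is no replicate check, so no test was run, and every interval is a 95% interval for counting error only. The WT-labelled library held 6354 cells (median 5740 UMIs) and the KO-labelled library 7078 cells (median 5962.5 UMIs), and 4 barcodes occurred in both. Gsdme, the targeted gene, was read 225 times in the WT-labelled library (5.03 CPM, UMIs per 1000000 UMIs) and 237 times in the KO-labelled one (4.65 CPM). It did not mark the KO-labelled library, which rests on the submitters' note on barcode suffixes, and whether the counted end of the transcript lies in the deleted part was not given in the sources used here. Genes encoded by mitochondrial DNA were not listed in the table, so every value below concerns nuclear genes.

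Cells were clustered without the members and named from marker genes, giving 15 types called by their markers with the ending -like. Of these, 10 had at least 50 cells in each library, and are called the larger types. Between them, their median depth ran from 1753.0 to 11591.0 UMIs per cell. In 14 of the 15 types every fixed marker was above its level in the other named cells, and in the FAP-like cells (fibro-adipogenic progenitors, the stromal cells of muscle) 6 of 7 were. The cells called pericyte-like also held smooth muscle RNA. Their 10 leading genes were headed by Acta2, Myh11 and Tagln, contractile genes of smooth muscle, and held 2 markers of each set. The 7 pericyte markers had a mean log2 difference of 3.89 from all other cells and the 6 smooth muscle markers one of 3.71, so the name stands for vascular mural cells, in which pericytes and smooth muscle cells could not be told apart.

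Members made up 1.60% of all UMIs in the WT-labelled library and 1.45% in the KO-labelled library. Mature muscle-like cells held by far the most. Their 85 members summed to 73912 CPM (72119 to 75737) in 30 WT-labelled cells and to 66833 CPM (65993 to 67682) in 63 KO-labelled cells. That was 4.51 and 4.10 times the median of the 10 larger types in the same library.

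**Figure D1:**
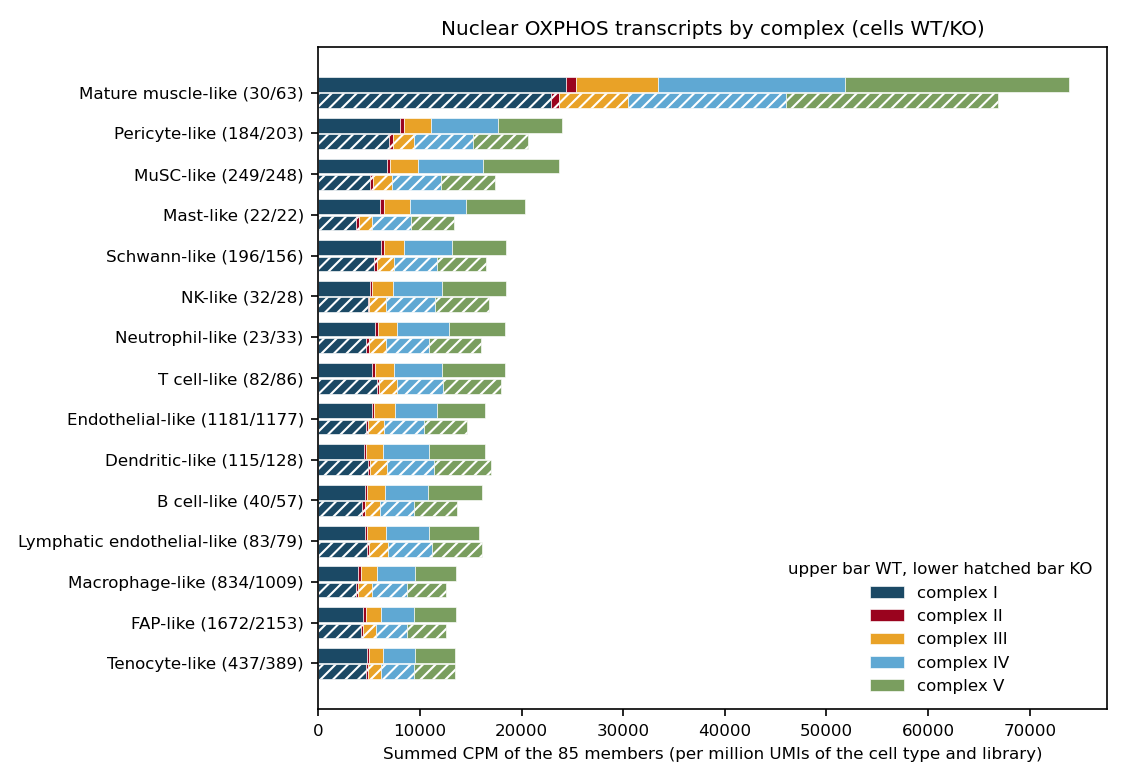
Summed CPM of the 85 members (horizontal axis, from 0) in each of the 15 named cell types, with the numbers of WT-labelled and KO-labelled cells in brackets. The upper bar is the WT-labelled and the lower hatched bar the KO-labelled library, and colours mark complexes I to V. Mature muscle-like cells reach 73912 and 66833 CPM, while the next highest, pericyte-like cells, reach 23959.7 and 20676 CPM.

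Among the larger types the sums lay closer together. Pericyte-like cells had 23959.7 CPM in the WT-labelled and 20676 CPM in the KO-labelled library. MuSC-like cells (muscle satellite stem cells, the source of new fibres) had 23652 CPM and 17361 CPM. These were the highest sums of the larger types in the WT-labelled library, where their intervals (23504 to 24422 and 23431 to 23874) overlapped. In the KO-labelled library pericyte-like cells were still first, followed by T cell-like cells at 18021 CPM, with MuSC-like cells next. The lowest sums were those of tenocyte-like cells (13481 and 13489 CPM), FAP-like cells (13510.2 and 12541 CPM) and macrophage-like cells (13573 and 12567 CPM). In the WT-labelled library the intervals of these 3 types overlapped, and in the KO-labelled library those of FAP-like and macrophage-like cells did.

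The split between complexes varied much less than the level. Over the 20 combinations of larger type and library, complex I took 27.2% to 35.8% of the members' UMIs, complex II at most 2.06%, complex III 9.45% to 12.4%, complex IV 23.0% to 28.1% and complex V 26.4% to 33.7%. Mature muscle-like cells lay inside the first and the last 3 of these ranges in both libraries, with 33.0% and 34.2% in complex I and 25% and 23.3% in complex IV. For complex II they had 1.36% and 1.19%, and the KO-labelled value lay below those of all larger types. Tenocyte-like cells were at the upper end for complex I (35.8% and 34.9%), and dendritic-like cells, antigen-presenting cells, at its lower end (27.2% and 28.6%).

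Per cell, among cells with at least 1000 UMIs, members took a median of 6.86% of UMIs in 10 WT-labelled mature muscle-like cells (quartiles 2.71% and 9.06%) and 6.85% in 46 KO-labelled ones (5.85% and 8.33%). Only 10 of the 30 WT-labelled cells reached that depth, so the WT value has few cells behind it. In macrophage-like cells the medians were 1.28% and 1.19%, and in FAP-like cells 1.28% and 1.2%.

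Almost the whole set was higher in mature muscle-like cells. Of 84 members with at least 50 UMIs over the named cells, 78 were at least 2-fold above the median of the other named types in both libraries. By the same rule 8.87% of all genes (1250 of 14098) were. The median member was 4.88-fold (WT-labelled) and 4.74-fold (KO-labelled) above the other types in complex I, 4.27-fold and 2.89-fold in complex II, 5.01-fold and 5.50-fold in complex III, 4.19-fold and 3.75-fold in complex IV and 4.56-fold and 4.48-fold in complex V. The 6 members outside the count, named after their values were seen, were Cox4i2, Cox6a1, Cox6b2, Cox7a2l, Cox8a and Ndufa4l2, each a paralog or relative of another subunit. In pericyte-like cells 9 of 84 members (10.7%) were past the same fold, beside 19.6% of all genes. In MuSC-like cells 3 were (3.57%), namely Cox6a2, Cox6b2 and Cox8b, beside 17.0% of all genes, and in tenocyte-like cells 1 was, Ndufa4l2, beside 21.3%.

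The muscle isoforms of complex IV had their highest levels in these cells, although these few cells held only 134 of the 368 Cox6a2 UMIs, 44 of the 254 Cox7a1 UMIs and 74 of the 278 Cox8b UMIs of the WT-labelled library. Cox6a2, the heart and muscle form of subunit VIa (chr7:128205435-128206387, - strand, GRCm38), had 1535 CPM in WT-labelled and 1684 CPM in KO-labelled mature muscle-like cells. Its share of the Cox6a1 and Cox6a2 UMIs was 89.9% (83.9% to 94.3%) and 98.4% (97.0% to 99.2%). In FAP-like cells that share was 0.580% and 0.992%. Cox7a1, the muscle form of subunit VIIa (chr7:30184144-30186078, + strand), had 504 and 449 CPM in mature muscle-like cells, or 24.6% (18.5% to 31.6%) and 28.1% (24.5% to 32.0%) of the Cox7a1, Cox7a2 and Cox7a2l UMIs. Cox7a2, the form used in most tissues, had 1168 and 878 CPM there. Cox8b, the muscle form of subunit VIII (chr7:140898945-140900446, - strand), had 848 and 928 CPM.

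The ubiquitous partners differed between the libraries in these cells. Cox8a had 825 CPM in WT-labelled and 269 CPM in KO-labelled mature muscle-like cells, a log2 ratio of -1.62 (-2.07 to -1.16). Cox6a1 had 172 and 27.7 CPM, from 15 and 10 UMIs. As a result Cox8b made up 50.7% of Cox8a and Cox8b UMIs in WT-labelled and 77.5% in KO-labelled cells, and the intervals (42.3% to 59.0% and 73.3% to 81.4%) were apart. The WT-labelled cells were also shallower, with a median of 834.0 UMIs against 2535.0, and lower in the 7 mature muscle markers (111022 against 163551 CPM). Myog, a gene of differentiating myocytes, had 619 CPM in the WT-labelled and 16.6 CPM in the KO-labelled ones. The part of depth, maturity and RNA from other cells in this difference was not tested.

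Other members peaked in the fibres without a tissue-specific name. Atp5g1, one of 3 genes for the same c subunit of ATP synthase, had 2222 and 2041 CPM in mature muscle-like cells and made up 53.9% and 51.5% of the UMIs of Atp5g1, Atp5g2 and Atp5g3, against 34.5% and 32.5% in tenocyte-like cells and 22.7% and 23.7% in pericyte-like cells. Cox5a, a complex IV subunit, reached 7.74 and 9.33 times the median of the other types, Ndufc1 8.84 and 9.61 times, Ndufa5 9.5 and 7.46 times, Ndufa12 9.05 and 7.5 times, and Atp5o.1 8.07 and 7.78 times.

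Cox7a1 and Cox8b can be set beside Cox7a2 and Cox8a in their promoters. The RefSeq windows (GRCm38.p6) below give the 250 bases before each start, shown because the members of each pair are forms of the same subunit but only one of them was at a high level outside mature muscle-like cells, with Atp5k added as the complex V member that was lowest in the KO-labelled MuSC-like cells. Capitals mark CG dinucleotides.
Cox7a1 (chr7:30183921-30184170, + strand): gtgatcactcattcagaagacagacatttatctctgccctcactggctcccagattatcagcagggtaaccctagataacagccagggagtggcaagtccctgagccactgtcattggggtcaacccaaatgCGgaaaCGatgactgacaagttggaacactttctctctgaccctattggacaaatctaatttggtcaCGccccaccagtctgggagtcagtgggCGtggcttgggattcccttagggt
Cox8b (chr7:140900447-140900696, - strand): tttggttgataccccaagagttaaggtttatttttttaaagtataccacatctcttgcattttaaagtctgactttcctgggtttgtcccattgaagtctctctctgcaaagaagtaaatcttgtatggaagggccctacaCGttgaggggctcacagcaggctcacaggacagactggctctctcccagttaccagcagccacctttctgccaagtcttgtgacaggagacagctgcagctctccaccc
Cox7a2 (chr9:79759854-79760103, - strand): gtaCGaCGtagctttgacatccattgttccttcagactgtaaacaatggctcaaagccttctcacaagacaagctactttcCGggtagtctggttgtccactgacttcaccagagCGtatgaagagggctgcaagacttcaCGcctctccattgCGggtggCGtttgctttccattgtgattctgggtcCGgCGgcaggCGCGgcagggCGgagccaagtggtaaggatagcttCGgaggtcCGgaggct
Cox8a (chr19:7217617-7217866, - strand): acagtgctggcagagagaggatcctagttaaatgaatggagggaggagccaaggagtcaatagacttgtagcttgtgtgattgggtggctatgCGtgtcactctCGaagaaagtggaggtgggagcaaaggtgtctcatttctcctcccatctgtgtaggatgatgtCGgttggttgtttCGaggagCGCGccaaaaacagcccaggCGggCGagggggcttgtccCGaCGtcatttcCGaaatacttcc
Atp5k (chr5:108434400-108434649, - strand): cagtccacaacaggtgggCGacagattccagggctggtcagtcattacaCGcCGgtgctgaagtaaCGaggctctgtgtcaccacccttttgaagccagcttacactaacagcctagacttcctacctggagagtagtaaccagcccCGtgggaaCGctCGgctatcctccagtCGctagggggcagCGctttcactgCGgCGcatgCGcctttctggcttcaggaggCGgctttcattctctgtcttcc
The muscle forms held 4 (Cox7a1) and 1 (Cox8b) CG dinucleotides, whereas Cox7a2 held 14, Cox8a 11 and Atp5k 13. The median was 14 over the members' windows and 6.0 over all windows. Cox8b carried the muscle E-box letters CAGCTG 19 bases before its start and Cox7a1 none of the motifs searched. Atp5k carried the NRF1 core letters GCGCATGC 50 bases before its RefSeq start and, overlapping it, the same core on the other strand, GCATGCGC. In GENCODE release M21 the starts of Cox7a1 (30184144), Cox7a2 (79759878) and Atp5k (108434448) lie inside the printed windows. By that annotation part of each of these windows belongs to the gene.

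Windows were found for 68 of the 85 members, and in 300 bases around the start (250 before and 50 after) both strands were searched. The NRF1 core GCGCATGC, bound by a regulator of respiratory genes, occurred in 14.7% of members and 3.05% of all 27025 genes with a window. The GABP letters CCGGAAG occurred in 25% and 9.93%, the ERR letters AAGGTCA in 11.8% and 5.38%, and the muscle E-box CAGCTG in 8.82% and 18.3%. By complex, GABP letters were found in 6 of 14 complex V genes and 4 of 34 complex I genes. In the promoters shown above, further matches reached past the printed bases. They were another CAGCTG in Cox8b, GABP letters across and after the start of Cox8a, and GABP and ERR letters in Atp5k. These are matches of letters and not binding sites. The NRF1 and GABP letters contain CG, of which the members' windows held more (median 14 against 6.0), and the shares were not matched for this.

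**Figure D2:**
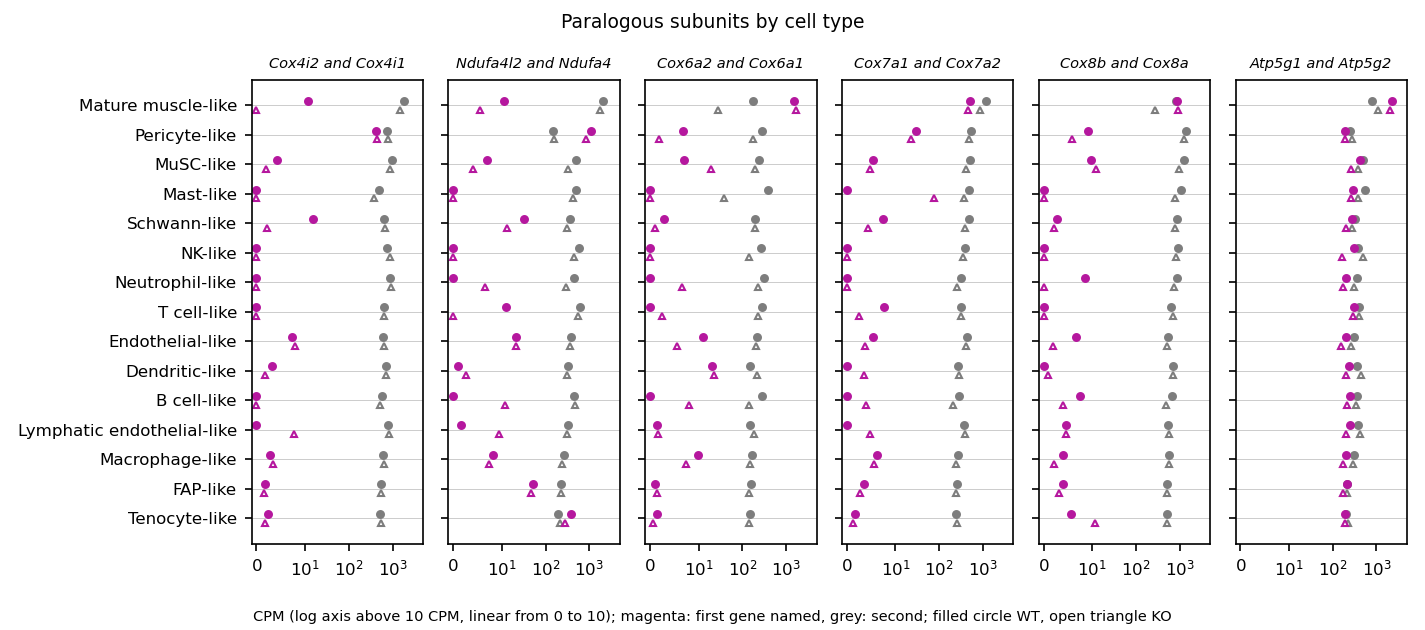
CPM of 6 pairs of paralogs (horizontal axes, logarithmic above 10 CPM and linear from 0 to 10) in the 15 named cell types, with filled circles for the WT-labelled and open triangles for the KO-labelled library. Magenta is the gene named first in each panel and grey the second. Cox4i2 and Ndufa4l2 peak in pericyte-like cells (414 and 446 CPM, 1108 and 852 CPM), and Cox6a2, Cox7a1 and Cox8b in mature muscle-like cells.

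Pericyte-like cells had their own pair. Cox4i2, the alternative form of subunit IV described as induced by low oxygen (chr2:152754173-152765037, + strand), had 414 CPM (356 to 479) in the WT-labelled and 446 CPM (391 to 508) in the KO-labelled library. It took 35.1% (31% to 39.4%) and 36% (32.3% to 39.9%) of the Cox4i1 and Cox4i2 UMIs, with Cox4i1, the common form, at 764 and 793 CPM. A further cluster led by the pericyte marker Rgs5 but rich in endothelial RNA was left unnamed. With its cells added (an alternative chosen after the data were seen) the Cox4i2 shares were 21.9% and 20.7%. In the larger types apart from pericyte-like cells Cox4i2 lay between 0 and 15 CPM. The libraries did not differ detectably in Cox4i2, with a log2 ratio of 0.11 (-0.18 to 0.40).

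Ndufa4l2, a relative of Ndufa4 also known as a target of the hypoxia pathway (chr10:127514967-127517154, + strand), was the other gene of this pattern. It had 1108 CPM (1012 to 1211) in WT-labelled and 852 CPM (775 to 935) in KO-labelled pericyte-like cells, a log2 ratio of -0.38 (-0.57 to -0.19). There it took 88.2% and 84.7% of the Ndufa4 and Ndufa4l2 UMIs. Unlike Cox4i2 it was also prominent in tenocyte-like cells, the cells of tendon, with 373 and 283 CPM and a share of 65.5% (63.8% to 67.2%) and 56.8% (54.7% to 58.8%). FAP-like cells had 52.0 and 46.5 CPM (18.5% and 17.1%), and MuSC-like cells 6.99 and 4.07 CPM (1.41% and 1.22%). In tenocyte-like cells, as in pericyte-like cells, the KO-labelled value was the lower (log2 ratio -0.40, -0.50 to -0.30).

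Muscle transcripts were also read in other cells. Whether they came from free RNA, mixed droplets or the cells themselves was not tested. Creatine kinase Ckm had 17284 and 25839.8 CPM in mature muscle-like cells and between 11.1 and 110.3 CPM in the larger types. Cox6a2 had 8.88 (7.39 to 10.6) and 6.52 (5.99 to 7.08) UMIs per 100 Ckm UMIs in mature muscle-like cells and nearly the same in FAP-like cells (5.85 and 6.75). Dendritic-like cells departed from this ratio, with 106 (52.4 to 213) and 96.2 (53.3 to 173) Cox6a2 UMIs per 100 Ckm UMIs, on 19 and 25 Cox6a2 UMIs. Endothelial-like cells, with 22.7 (17.9 to 28.4) and 13.4 (9.37 to 18.8), and macrophage-like cells, with 15.7 (11.2 to 21.6) and 18.5 (12.9 to 25.9), had higher ratios too. In MuSC-like cells the ratio was 6.34 (3.32 to 11.1) in the WT-labelled and 17.5 (11.3 to 26.3) in the KO-labelled library, where Cox6a2 itself had 6.99 and 19.0 CPM (13 and 28 UMIs, log2 ratio 1.44, 0.45 to 2.51). For Cox8b the ratio was 4.90 and 3.59 in mature muscle-like cells and 24.9 and 15.3 in FAP-like cells, where the gene had only 4.0 and 3.26 CPM. It was highest in tenocyte-like cells, at 50 (31.1 to 78.7) and 78.9 (54.6 to 114) on 30 and 56 Cox8b UMIs. There Cox8b was the higher in the KO-labelled library, at 5.56 and 11.9 CPM (log2 ratio 1.09, 0.43 to 1.78). Cox6b2, the testis form of subunit VIb, was low in every larger type, at most 27.7 CPM.

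Between the libraries, the members' sum was lower in the KO-labelled library in most of the larger types, and among these most of all in MuSC-like cells. The interval of the log2 ratio of KO over WT lay below 0 in 6 of the 10 larger types, spanned 0 in 3 (lymphatic endothelial-like, T cell-like and tenocyte-like cells) and lay above 0 in dendritic-like cells, at 0.05 (0.02 to 0.08). MuSC-like cells had -0.45 (-0.47 to -0.42), a change of -26.6%. Pericyte-like cells followed with -0.21 (-0.25 to -0.17), endothelial-like cells with -0.17 (-0.18 to -0.15), Schwann-like cells with -0.16 (-0.19 to -0.13), and FAP-like and macrophage-like cells with -0.11 each. Among pericyte-like cells with at least 1000 UMIs, the median share of members was 1.75% in 126 WT-labelled and 1.81% in 150 KO-labelled cells. The median was thus not lower in the KO-labelled pericyte-like cells, while the upper quartile was (2.92% and 2.66%). Of the types with fewer cells, mast-like cells (22 and 22 cells) had -0.61 (-0.80 to -0.42) and B cell-like cells -0.24 (-0.32 to -0.16). In B cell-like cells the median over all 1025 genes measured was also -0.24, beside -0.28 over 44 members. Their median share of members per cell was 1.46% (WT-labelled) and 1.45% (KO-labelled). Neutrophil-like cells had -0.19 (-0.28 to -0.11), mature muscle-like cells -0.15 (-0.18 to -0.11) and NK-like cells -0.13 (-0.21 to -0.05). The intervals show only that the 2 libraries differed beyond counting error.

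**Figure D3:**
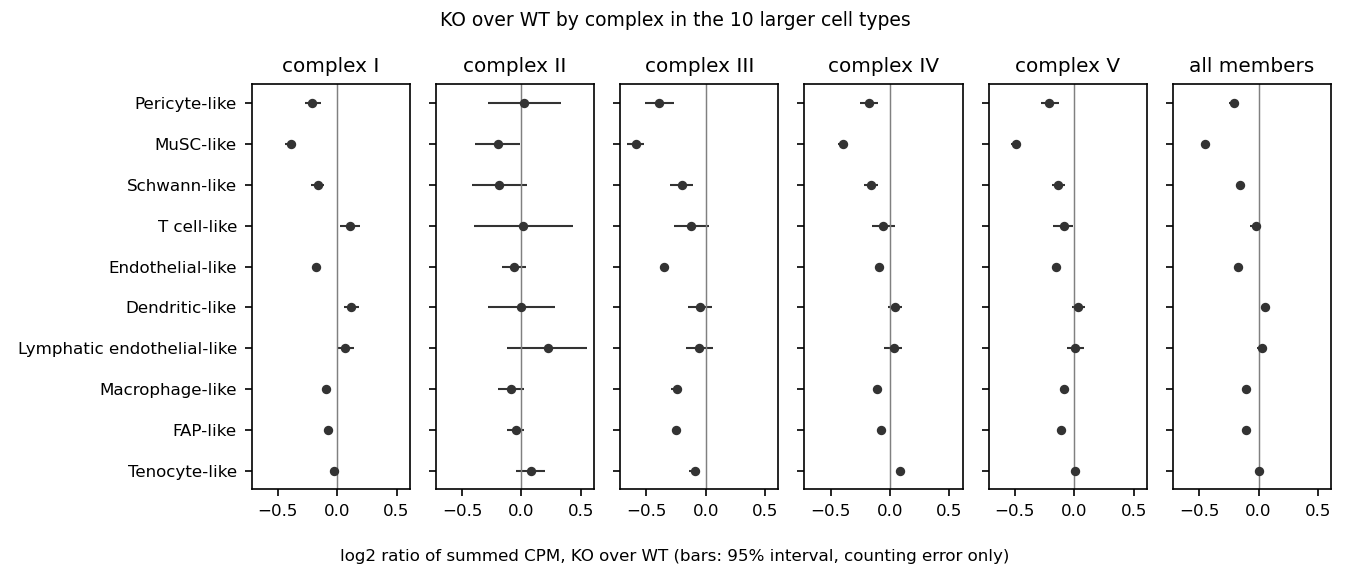
Log2 ratio of summed CPM, KO-labelled over WT-labelled library (horizontal axes), for complexes I to V and all members in the 10 larger cell types. Points are values and bars 95% intervals for counting error. MuSC-like cells lie at -0.39, -0.20, -0.59, -0.40 and -0.49 for complexes I to V, and complex II intervals span 0 in the other 9 types.

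By complex, complex III was lowest in the KO-labelled library: its interval lay below 0 in 7 of the 10 larger types, with -0.59 (-0.66 to -0.52) in MuSC-like, -0.39 in pericyte-like, -0.35 in endothelial-like, -0.25 in FAP-like and -0.24 in macrophage-like cells. Complex II, the smallest in UMIs, had an interval that excluded 0 only in MuSC-like cells (-0.20, -0.39 to -0.01). Complex I was lower in 7 types and higher in dendritic-like cells (0.12, 0.06 to 0.18) and T cell-like cells (0.11, 0.02 to 0.19). Complex IV was lower in 6 types and higher in tenocyte-like cells (0.08, 0.05 to 0.11), and complex V was lower in 7.

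In MuSC-like cells nearly all members leaned the same way. Of 78 members with at least 50 UMIs, 75 were lower in the KO-labelled library, and the median log2 ratio was -0.42 (quartiles -0.60 and -0.29) against 0.02 over all 6585 genes measured there, of which 48.3% were lower. Past 1.5-fold, 22 of the 78 (28.2%) were lower and 0 higher, where 9.89% of all genes were lower and 13.0% higher. The count of 22 depended on the scaling: it was 11 when levels were averaged over cells and 13 when every cell was thinned to 1000 UMIs. The 3 members above 0 were Ndufc2 (0.04), Sdha (0.01) and Cox7a2l (0.02).

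**Figure D4:**
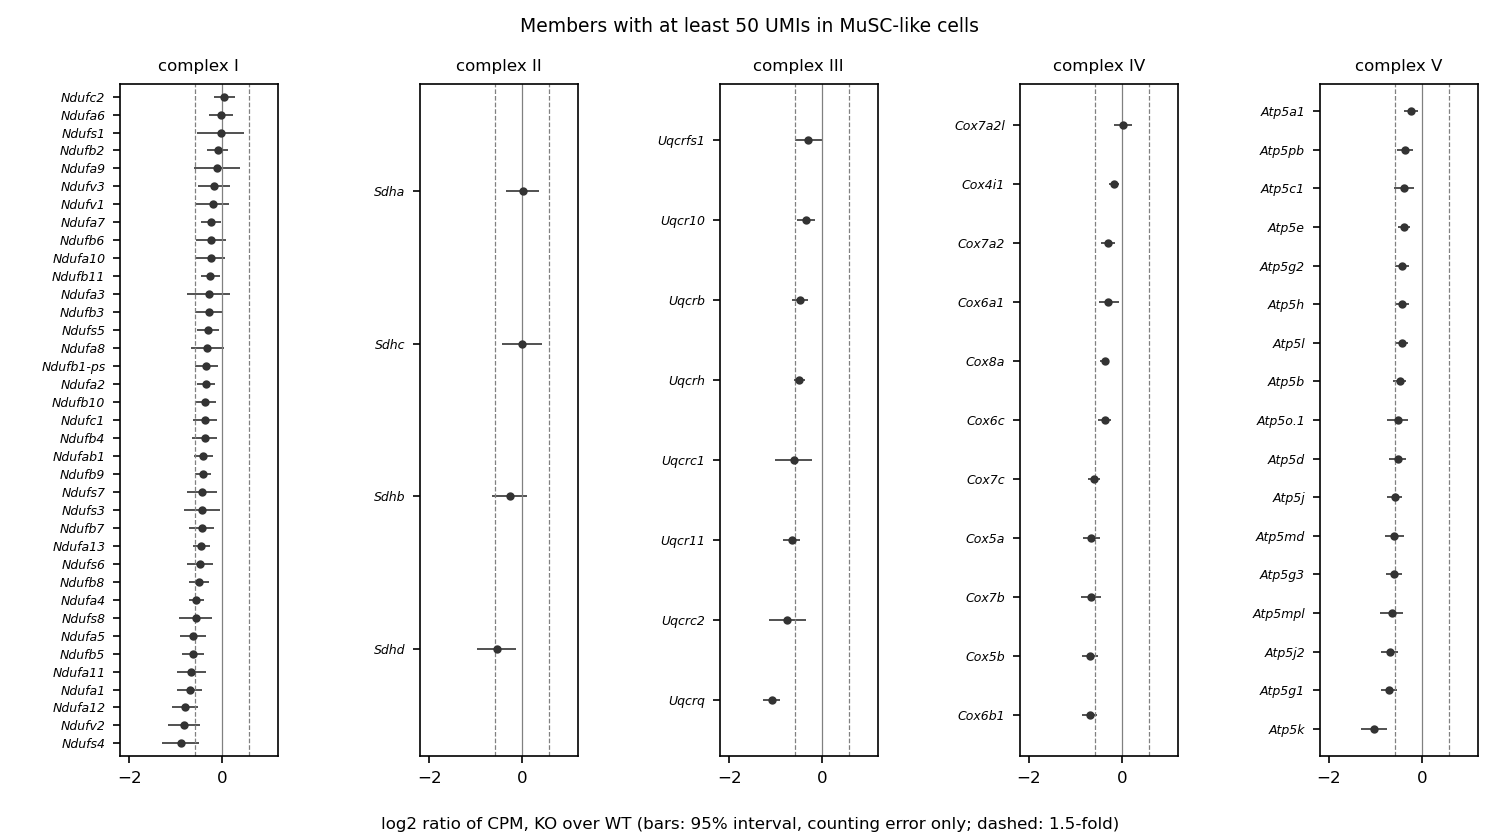
Log2 ratio of CPM, KO-labelled over WT-labelled library (horizontal axes), for members with at least 50 UMIs in MuSC-like cells (78, of which 1 is not drawn), with a panel per complex. Points are values, bars 95% intervals for counting error, and dashed lines 1.5-fold. Values run from -1.08 (Uqcrq) to 0.04 (Ndufc2), and 22 members lie left of the lower dashed line.

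In complex I, summed to 6718 CPM (WT-labelled) and 5113 CPM (KO-labelled) in MuSC-like cells, 7 of 38 members were past the fold. Ndufs4, a small subunit of the electron-input module, had 93.1 CPM from 173 UMIs and 50.2 CPM from 74 UMIs, a log2 ratio of -0.89 (-1.30 to -0.49). At the other end Ndufc2 had 197 and 203 CPM. When the processing was varied, the Ndufs4 ratio ran from -0.94 to -0.38, at its weakest short of 1.5-fold. That of Ndufc2 ran from -0.3 to 0.07. In the other 9 larger types the Ndufs4 interval spanned 0, with log2 ratios of 0.00 in FAP-like, -0.02 in endothelial-like and 0.21 (-0.04 to 0.46) in macrophage-like cells. In the fewer B cell-like cells it was -1.38 (-2.71 to -0.11).

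In complex II no member of 4 was past the fold. Sdhd, a membrane anchor, had 76.9 and 52.9 CPM (-0.54, -0.96 to -0.13), and the iron-sulphur subunit Sdhb 81.2 and 67.2 CPM (-0.27, -0.65 to 0.10). The flavoprotein Sdha (81.8 and 82.1 CPM) and the other anchor, Sdhc (56.0 and 55.6 CPM), were at nearly equal values in both libraries. Their intervals ran from -0.35 to 0.36 and from -0.44 to 0.42, so a difference of -0.20, as in the complex as a whole, lay inside both.

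In complex III, 4 of 8 members were past the fold. Uqcrq, a small subunit next to cytochrome b, had 538 and 254 CPM from 1000 and 374 UMIs (-1.08, -1.26 to -0.91), the lowest ratio of all members. The other 3, named after their values were seen, were the core proteins Uqcrc1 (-0.61) and Uqcrc2 (-0.75) and the small subunit Uqcr11 (-0.65). Uqcrfs1, the Rieske iron-sulphur protein, was the highest of the complex at 138 and 113 CPM (-0.29, -0.58 to 0.00). Without Uqcrq the complex still stood at -0.49 (-0.57 to -0.42), the same value as complex V.

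In complex IV, 5 of 11 members were past the fold. Cox6b1, a subunit at the dimer interface, was lowest with 474 and 293 CPM (-0.69, -0.86 to -0.53), and Cox5b (-0.68), Cox7b (-0.67), Cox5a (-0.66) and Cox7c (-0.60), named after their values were seen, were near it. Cox7a2l, which links complexes III and IV, had 274 and 278 CPM (0.02, -0.17 to 0.21). In complex V all 17 members were below 0 and 6 were past the fold. Atp5k, the e subunit that helps hold ATP synthase dimers, had 198 and 97.7 CPM (-1.02, -1.31 to -0.74). Atp5a1, the alpha subunit of the catalytic head, was the least low at 481 and 406 CPM (-0.24, -0.39 to -0.09), and Atp5g1 had 430.5 and 264 CPM (-0.71, -0.88 to -0.53).

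Per cell the difference was a shift of most of the distribution. Among MuSC-like cells with at least 1000 UMIs the members' share had a median of 1.87% in 243 WT-labelled cells (quartiles 1.60% and 2.26%) and 1.51% in 244 KO-labelled cells (upper quartile 1.83%). The upper tail was apart too, with 95th percentiles of 3.6% and 2.61%.

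The make-up of the MuSC-like cells differed between the libraries along with this. Pax7, a marker of quiescent and activated stem cells, had 156 CPM in the WT-labelled and 289 CPM in the KO-labelled library, and Myod1, of committed myoblasts, 319 and 540.2 CPM. Myog, which marks differentiating myocytes, had 266 and 153 CPM. Median depth was 6433.0 and 5492.5 UMIs. Cells with a Myog UMI numbered 15 of 249 (6.02%) and 4 of 248 (1.61%), and their members summed to 44769 and 44950.4 CPM, so that the ratio was 0.01 (-0.05 to 0.06) there. In cells with a Pax7 and no Myog UMI (124 and 177 cells) the sums were 19748 and 16027 CPM, a log2 ratio of -0.30 (-0.33 to -0.27), and in cells with neither (110 and 67 cells) 19971 and 16312 CPM, at -0.29 (-0.34 to -0.25). Thus cells read for Myog held the highest sums of members in both libraries and were fewer in the KO-labelled one, and outside them the ratio was smaller than over all MuSC-like cells. These divisions were chosen after the data were seen, and a UMI of Myog or Pax7 is read more easily in deeper cells.

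Complexes I, III, IV and V were each lower in the KO-labelled cells with Pax7 and no Myog UMI, at -0.27, -0.43, -0.28 and -0.31, while complex II was at -0.02 (-0.28 to 0.25). In the 15 and 4 cells with a Myog UMI, intervals of all 5 complexes spanned 0.

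Other mitochondrial and metabolic genes of MuSC-like cells were read beside the members, each list by the same 1.5-fold rule, by which 9.89% of all genes were lower and 13.0% higher. Of the assembly factors, which build the complexes, 7 of 18 were lower and 1 higher (median log2 ratio -0.40), from Coa5 (-1.14) and Coa3 (-1.12) to Ndufaf8 (0.04) and Ttc19 (0.63). Of the electron carriers and exchangers, 4 of 15 were lower (-0.23), from the ADP/ATP carrier Slc25a5 (-0.78) and cytochrome c, Cycs (-0.65), to Coq10b (0.42) and Coq5 (0.43). Of the mitochondrial ribosome 15 of 62 were lower (-0.22), from Mrpl34 (-1.64) and Mrpl18 (-1.10) to Mrpl27 (0.28) and Mrps17 (0.29). The TCA cycle had 1 of 17 lower (-0.21), a share no greater than that of all genes, with Mdh2 (-0.67) and Fh1 (-0.48) lowest and Dlst (0.17) and Ogdh (0.29) highest.

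Glycolysis, which makes ATP without these complexes, was also lower, with 5 of 13 past the fold and a median of -0.46, from the muscle enolase Eno3 (-1.57) and Pgam1 (-1.35) to Pfkp (0.06) and Hk2 (0.28). Of the biogenesis genes, which regulate mitochondrial genes or serve mitochondrial DNA, 2 of 8 were lower and 1 higher (median 0.00). Tfb2m (-0.68) and Yy1 (-0.61) were lowest, Polg (0.43) and Gabpb1 (1.07) highest. Cytosolic ribosomal genes, taken by symbol, had a median of -0.28 with 2 of 82 lower. They ran from Rps19bp1 (-0.83) and Rpl35 (-0.63) to Rps15 (0.16) and Rpl10-ps3 (0.21). By its symbol Rps19bp1 is a binding protein and Rpl10-ps3 a pseudogene, so these 2 extremes are not ribosomal protein genes. Immediate-early and heat-shock genes, which respond to stress and to dissociation, leaned the other way: 18 of 29 were higher and 1 lower (median 0.72), from Klf4 (-0.74) and Dusp1 (0.01) to Dnajb1 (1.95) and Hspa1b (1.97). The part of this stress signal in the members' ratio was not tested. With ribosomal, immediate-early, heat-shock and hemoglobin genes left out of the totals, the members' ratio in MuSC-like cells was -0.50. These sets were left out together, although their medians lay on both sides of 0 (-0.28 and 0.72). The value therefore does not give the part of any one set.

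In the 3 most numerous types the differences were small and few members passed the fold. In FAP-like cells 74 of 83 members were lower in the KO-labelled library (58.9% of all genes were), with a median of -0.10 against -0.06 over all genes. Past 1.5-fold, 1 was lower, Uqcrq, and 0 higher, where 6.33% of all genes were lower and 3.69% higher. The extremes of each complex among members with at least 100 UMIs were Ndufa3 (-0.34) and Ndufa5 (0.09) in complex I, Sdhb (-0.15) and Sdhc (0.10) in II, Uqcrq (-0.66) and Uqcrb (0.01) in III, Cox6b2 (-0.34, on 59 and 66 UMIs) and Cox8a (-0.02) in IV, and Atp5g1 (-0.32) and Atp5c1 (0.02) in V.

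In macrophage-like cells 68 of 81 members were lower (55.1% of all genes), with a median of -0.11 against -0.04. Again Uqcrq was the single member past the fold downward, with 0 upward, where 7.17% of all genes were lower and 4.53% higher. By the same minimum the extremes were Ndufs8 (-0.45) and Ndufs4 (0.21), Sdhb (-0.32) and Sdhc (0.19), Uqcrq (-0.74) and Uqcrc1 (-0.04), Cox7b (-0.30) and Cox4i1 (0.06), and Atp5j2 (-0.27) and Atp5md (0.05) for complexes I to V.

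In endothelial-like cells 74 of 83 members were lower (44.7% of all genes), with a median of -0.17 against 0.04. Past the fold 3 were lower and 0 higher, where 3.88% of all genes were lower and 4.38% higher. They were Uqcrq (-1.0, -1.09 to -0.91) and 2 muscle isoforms at low levels, Cox6a2 (12.6 and 5.56 CPM, -1.18) and Cox8b (6.71 and 2.0 CPM, -1.75, named after its value was seen). The 7 mature muscle markers were also lower, at 357 and 237 CPM, and the part of free muscle RNA in these ratios was not tested. The other extremes given here were Ndufv2 (-0.38), Sdhb (-0.30) and Sdhc (0.12), Uqcrfs1 (-0.08), Cox4i2 (0.14, at 7.25 and 7.98 CPM), and Atp5g1 (-0.34) and Atp5o.1 (0.08). The Ndufv2 ratio ran from -0.42 to 0.17 when the processing was varied. Sdhb was thus the lowest and Sdhc the highest complex II member in FAP-like, macrophage-like and endothelial-like cells alike, although each Sdhc interval spanned 0. The margins could be small, with Sdha at 0.11 in endothelial-like and Sdhd at -0.23 in macrophage-like cells. With the processing varied, endothelial-like Sdhc ran from -0.21 to 0.18 and Sdhb from -0.34 to -0.02.

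Pericyte-like cells were mixed. There 9 of 79 members were lower and 3 higher past 1.5-fold, where 10.5% of all genes were lower and 7.58% higher, so the share of members lower (11.4%) was near that of all genes. The 3 that were higher, named after their values were seen, were Ndufa10 (0.99), Sdhc (0.70) and Ndufa8 (0.69). These cells were the shallowest of the larger types, with medians of 1822.5 and 1753.0 UMIs.

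Uqcrq was the member that differed most evenly. It had 229 to 538 CPM over the 10 larger types in the WT-labelled library and 154 to 286 CPM in the KO-labelled one, and was lower in the KO-labelled library in all 15 named types. The log2 ratio over the larger types ran from -1.08 in MuSC-like cells through -1.0 in endothelial-like, -0.74 in macrophage-like and -0.66 in FAP-like cells to -0.30 (-0.67 to 0.07) in T cell-like cells, and the interval lay below 0 in 9 of 10. Tenocyte-like cells, whose members' sum was equal in the libraries (13481 and 13489 CPM), had 229 and 154 CPM of Uqcrq (-0.57, -0.71 to -0.44), and dendritic-like cells, whose sum was higher in the KO-labelled library, had 362 and 282 CPM (-0.36, -0.58 to -0.13).

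**Figure D5:**
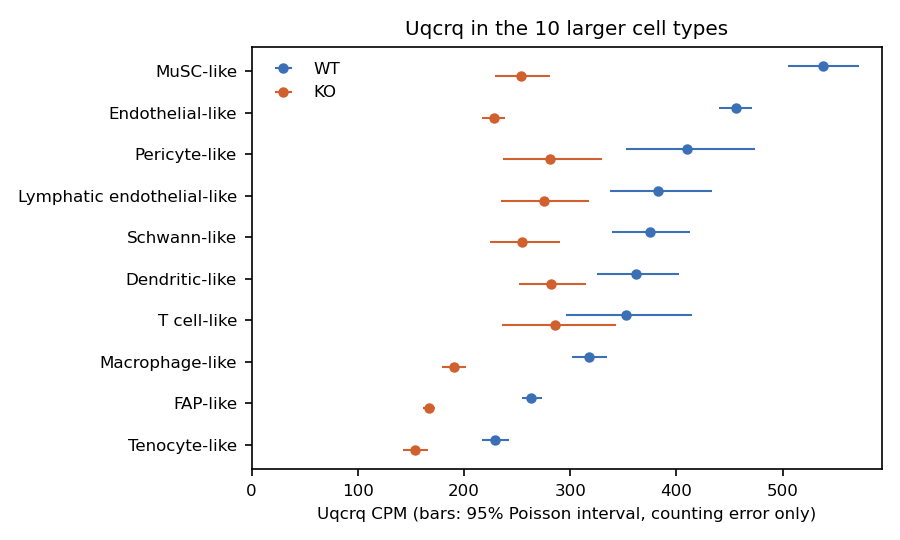
Uqcrq CPM (horizontal axis, from 0) in the 10 larger cell types, with blue points for the WT-labelled and orange points for the KO-labelled library and bars for 95% Poisson intervals of counting error. The KO-labelled value is the lower in every type, from 538 against 254 CPM in MuSC-like cells to 352 against 286 CPM in T cell-like cells, where the bars overlap.

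Of 1831 genes with at least 50 UMIs in each of the 10 larger types, 72 were members. In all 10 types 117 genes (6.39%) were lower in the KO-labelled library and 53 (2.89%) higher. Among members these were 3 lower, Uqcrq, Ndufa1 and Atp5j2 (Ndufa1 and Atp5j2 reached only -0.03 and -0.02 in dendritic-like cells), and 0 higher. With Uqcrq, 14 genes were at or below -0.30 in every one of the 10 types. When Uqcrq was left out, complex III no longer lay below 0 in tenocyte-like cells (-0.01, -0.07 to 0.04), and it moved from -0.35 to -0.21 in endothelial-like, from -0.25 to -0.17 in FAP-like and from -0.24 to -0.14 in macrophage-like cells. In these last types, and in pericyte-like cells (-0.36), it was still the lowest complex. In Schwann-like cells it moved from -0.20 to -0.13, above complexes I and IV at -0.16 each.

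Uqcrq lies on chr11:53427922-53430831 (- strand, GRCm38). Its next listed neighbour downstream, Leap2 (chr11:53422181-53423170, - strand), was read 33 times in the WT-labelled and 1 time in the KO-labelled library. Both were thus lower there, although Leap2 was near the limit of detection. On the other side Gdf9 (chr11:53431023-53437904, + strand), whose start faces that of Uqcrq, had 116 and 172 UMIs (2.59 and 3.38 CPM), and the nearest well-read neighbours, Aff4 (176 and 172 CPM) and Hspa4 (121 and 126 CPM), had log2 ratios of -0.03 and 0.05. The neighbours were named after the values of Uqcrq were seen. Outside the members, Tpm3-rs7 had 273 CPM in the WT-labelled and 5.93 CPM in the KO-labelled library over all cells. Tpm3, a gene of related symbol, had 222 and 623 CPM. Both were named after their values were seen. Whether the cause of any of these differences lies in the animals, the libraries or the counting was not tested.

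Reads could be shared between genes that have a stretch of sequence in common. Of the 81 members with their symbol in GENCODE release M21, 32 shared at least 90 bases at 95% identity or more with a transcript of another gene, and 8 shared them with a gene listed in the table. Uqcrq, Cox4i2, Cox6a2, Cox7a1, Cox8b and Ndufa4l2 had no such partner, while Atp5k and Ndufa12 had 1 each. Atp5g1 had 17, 12 of them listed, Ndufc1 15 (12 listed), Ndufs1 16 (13 listed), Atp5b 27 (19 listed) and Atp5l 81 (53 listed). Such partners share a stretch and need not be copies of the gene. Whether the stretches lie in the counted end of the transcripts was not examined. Any effect on the levels of these genes, and on the enrichment of Atp5g1 and Ndufc1 given above, is therefore unknown.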

How the data were processed

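The table held 1 value per gene and cell for 2 libraries. Per the submitters' processing notes reads were processed with Cell Ranger 2.1.1 against mm10. The authors deposited natural log values, ln(1 + 10000 × UMIs / total of the cell), from which whole UMIs were recovered (largest distance from a whole number 0.286) and summed per type and library. Libraries were told apart by barcode suffix, per the labels. The members and all lists were chosen with earlier results of these data known.

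Variable genes (2000, members left out, as 5 would have entered), 30 principal components, Harmony integration (own code) and Louvain clustering (resolution 0.8, igraph 0.11.9, Python 3.11.15) gave 29 clusters. Clusters were named from fixed markers, and the naming thresholds were set after the clusters were seen: a mean log2 marker difference over 0.25, at least 3 detected markers, no greater count of another lineage's markers than of its own among the 10 leading genes, another lineage's score under 50% of its own (under 25% with fewer than 2 own markers among them), and, with none among them, neither low depth, fewer than 100 cells nor fewer than 2 in 3 own markers above the other cells. Hemoglobin genes, read in every cluster, named none. Unnamed clusters held 18.5% of WT-labelled and 17.6% of KO-labelled cells. Doublets (Scrublet in scanpy 1.11.5, 101 and 109 cells) were kept in the values above and removed in an alternative.

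CPM is UMIs per 1000000 UMIs of the type and library, with exact Poisson intervals, and ratios and shares have exact binomial (Clopper-Pearson) intervals, all at 95%. Intervals do not cover the spread between animals. Genes needed 50 UMIs over both libraries in a type. Ratios were checked on simulated counts. Named members were the paralogs, the Sdh genes, the highest and lowest ratio per complex in 4 types (at least 100 UMIs), the 10 most type-enriched members and those under 50 UMIs. The value of 1 member named by this rule is not reported here. For other lists the 2 highest and 2 lowest ratios in MuSC-like cells were named. Similar transcripts were sought with blastn 2.17.0. UMIs were counted from one end of transcripts, so levels were compared between cells. Shares among paralogs set UMIs of different genes side by side and are not scaled for length.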

Additional observations from a re-analysis of the deposited data

Results flagged for a closer look

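The members' sum in dendritic-like cells was higher in the KO-labelled library, with a log2 ratio of 0.05 (0.02 to 0.08), while the ratio lay below 0 in 6 of the larger types. It was picked out because the direction differed between cell types. With 1 library per genotype the difference between types was not tested. The sums were 16373 and 16948 CPM in 115 and 128 cells, and complex I was at 0.12 (0.06 to 0.18), while the intervals of complexes II to V spanned 0. The median log2 ratio was 0.07 over 78 members and 0.03 over all 4183 genes measured in these cells.

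Cox4i2 was also read in cells left out of the named types, which entered only the alternative shares given above. In the unnamed cluster led by Rgs5 that was rich in endothelial RNA, it had 159.6 CPM in 287 WT-labelled cells and 146 CPM in 342 KO-labelled cells, from 683 and 743 UMIs. These values lay between those of pericyte-like cells (414 and 446 CPM) and endothelial-like cells (7.25 and 7.98 CPM). Ndufa4l2 had 374 and 329 CPM in the same cluster. Its cells were deep, with medians of 12859.0 and 12937.0 UMIs against 1822.5 and 1753.0 in pericyte-like cells, and the part of mixed droplets was not tested.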

How the results depend on the processing

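Of 301 values that answer a comparison under an alternative, 240 stayed within their counting interval or within 1.5 times the count, 56 moved and 5 reversed, and of 440 values of single genes 23 moved. The MuSC-like ratios of all members and of complexes I, II, IV and V changed sign in cells with a Myog UMI (15 and 4 cells). The log2 ratios of all members in endothelial-like, FAP-like and macrophage-like cells were -0.20, -0.05 and -0.07 when centred on the median of all genes, and their medians over members were -0.21, -0.05 and -0.07. Thinned to 1000 UMIs these sums were -0.11, -0.12 and -0.14, with medians of -0.08 in endothelial-like and -0.13 in macrophage-like cells. As a mean over cells the endothelial-like sum was -0.09, with medians of -0.08 in endothelial-like and -0.14 in macrophage-like cells. For MuSC-like cells the ratios of all members, complex I, IV and V were -0.38, -0.32, -0.33 and -0.44 as a mean over cells, -0.39, -0.32, -0.34 and -0.44 when thinned, and -0.50, -0.45, -0.45 and -0.55 with totals counted without ribosomal, immediate-early, heat-shock and hemoglobin genes. The count of members lower there was 11 as a mean over cells, 13 when thinned, 54 at a ratio of 5 to 4 and 2 at 2-fold, and 1 member was higher at a minimum of 10 UMIs. The fold of mature muscle-like cells over the larger types, 4.32 for both libraries, was 3.99 with the reduced totals, 4.70 when thinned and 5.16 without integration. That of pericyte-like cells, 1.40, was 1.23 with members among the variable genes, which also gave Ndufa4l2 shares of 93.2% (WT-labelled) and 89.8% (KO-labelled). The KO-labelled Ndufa4l2 share was 89.4% when thinned and 80.8% at resolution 0.4 and at 1.2, the WT-labelled Cox4i2 share 42.1% when thinned, and the WT-labelled Cox6a2 share in mature muscle-like cells 97.7% without integration. The cause of these shifts was not tested.

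Other alternatives were chosen after the data were seen. Without Uqcrq the ratio was -0.15 in endothelial-like and -0.10 in FAP-like cells, and -0.49 for complex III in MuSC-like cells. In MuSC-like cells with a Pax7 and no Myog UMI all members were at -0.30, complex I at -0.27, III at -0.43, IV at -0.28 and V at -0.31. In those with a Myog UMI they were at 0.01, 0.01, -0.16, 0.04 and 0.01, and complex II at 0.34, on 15 and 4 cells. With the unnamed Rgs5 cluster counted as pericyte-like the fold was 1.11, the Cox4i2 shares 21.9% and 20.7% and the Ndufa4l2 shares 62.0% and 60.6%. With 1 library per genotype no library could be left out. No paired analysis was possible because each genotype was a single library and no test was run.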

Other observations

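Cells in clusters without a name also differed in their members. The proliferating cluster led by Top2a, the topoisomerase of dividing cells, had 25285 CPM (24979 to 25593) in 59 WT-labelled cells and 20826 CPM (20483 to 21173) in 37 KO-labelled cells, in both libraries above the MuSC-like cells. A cluster led by Lyz1 and Retnla, genes of myeloid cells, had 20541 and 18395 CPM in 111 and 143 cells, against 13573 and 12567 CPM in macrophage-like cells. A cluster led by Gal and Asb5, whose best marker set was that of MuSC with endothelial genes beside it, had 18003 and 15519.9 CPM in 41 and 36 cells. In each of these 3 clusters the KO-labelled value was the lower, and the intervals were apart. Clusters of shallow cells went the other way. The one led by Apod and Gpc3, closest to the FAP markers, had 13183 CPM (12706 to 13674) and 14648 CPM (14153 to 15155) in 203 and 203 cells with medians of 781.0 and 867.0 UMIs. The one led by Igha and Jchain, closest to the endothelial markers, had 16715 CPM (16305 to 17133) and 17268 CPM (16889 to 17653), and these intervals overlapped.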
